A study of Homo sapiens with 8 samples.

Results

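The genes described here are 10 epithelial junction and splicing genes, CDH1, EPCAM, CLDN1, CLDN3, CLDN4, CLDN7, OCLN, TJP1, ESRP1 and GRHL2, in 8 mRNA-seq libraries of HCT116, a human colorectal cancer cell line. Rows were matched by gene symbol, and all 10 were found in both count tables, among 42125 and 23393 rows. All cells carried a stably expressed Tet-On shRNA against SAE2, another name for UBA2, the catalytic subunit of the enzyme that activates SUMO, a small protein attached to other proteins. TFAP2C, a transcription factor of the AP-2 family, was knocked down with an siRNA for 48 hrs and compared with a control siRNA, with 2 replicates in each group (TFAP2C KD and control siRNA). UBA2 KD was induced with doxycycline (Dox, 1 ug/mL) for 5 days and compared with cells given DMSO for 5 days, again with 2 replicates in each group (UBA2 KD and control without Dox). No group received Dox with a non-targeting shRNA among these libraries, so effects of Dox and of the shRNA cannot be told apart. The labels do not say whether replicates came from separate cultures, so p-values measure only the spread between these libraries, which may be technical.

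Epithelial cells are held together by adherens junctions, in which E-cadherin binds its neighbour outside the cell and catenins inside it, and by tight junctions, in which claudins and occludin seal the space between cells and ZO proteins tie them to actin. ESRP1 and GRHL2 belong to the program that keeps this state: ESRP1 is a splicing factor that sets epithelial exon choice, and GRHL2 is a transcription factor known to maintain junction genes. Loss of these genes, with gain of ZEB1, ZEB2, SNAI1 or SNAI2, is the usual mark of an epithelial-mesenchymal transition (EMT). The counts are per gene, so they give the level of ESRP1 but not the exon choice it sets.

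Libraries held 20785035 to 24465109 counts with either siRNA and 18213739 to 20607813 in the Dox experiment. Values per library are given as CPM, counts relative to the scaled library size. TFAP2C had 18.9 and 20.5 CPM with control siRNA and 3.46 and 4.30 in TFAP2C KD, a log2 fold change of -2.34 (SE 0.13, edgeR adjusted p = 7.67e-06). UBA2 mRNA was not lower with Dox: it had 161.6 and 146.3 CPM in control without Dox and 146.9 and 153.1 in the libraries labelled UBA2 KD, a log2 fold change of -0.04 (edgeR adjusted p = 0.766). Directions below are therefore those of the libraries labelled UBA2 KD. Of the markers of colorectal epithelium, KRT8 lay between 856 and 1145 CPM over the 8 libraries and CDX2 between 18.8 and 23.8, while VIL1, CDX1, LGALS4 and CDH17 had at most 0.250 CPM. Of 6 fibroblast markers, COL1A2, DCN and LUM had 0 counts in all 8 libraries, while COL1A1 had 43.2 to 47.5 CPM with either siRNA and 14.9 to 21.8 in the Dox experiment.

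In TFAP2C KD, none of the 9 members that could be tested passed the test for a change. The count was 0 of 9 in edgeR's quasi-likelihood test at an adjusted p under 0.05, against 0.74% of the 14991 genes tested and 0.963% of the 8618 genes at least as high as the lowest tested member. It was also 0 of 9 in DESeq2, which called 114 of the 14991 genes. In edgeR, an unadjusted p under 0.05 was reached by 1889 of the 14991 genes and by 1 of the 9 members, CLDN7. Both TFAP2C KD libraries lay beyond both controls for 5 of the 9 tested members, 2 above and 3 below, against 44.7% of all genes. The median log2 fold change was -0.01 over these 9 and -0.004 over all genes tested. The 95% intervals of the 9 reached from -0.37 to 0.37 at their widest, so a change by more than 0.37 on the log2 scale lay outside each of them.

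In the libraries labelled UBA2 KD, CLDN7, EPCAM and TJP1 rose and CLDN4 fell, by 10.7% to 22.5% of the control mean CPM. This made 4 of 9 tested members called by edgeR, 3 higher and 1 lower, against 9.98% of the 13381 genes tested and 11.6% of the 9618 genes at least as high as the lowest tested member. DESeq2 called 1 of the 9, CLDN7, against 673 of the 13381 genes, so the count of members depended on the test. Over all genes, 738 rose and 598 fell, and with library size alone in place of the TMM scaling 588 rose and 805 fell. Both UBA2 KD libraries lay beyond both controls for 5 of the 9 tested members, against 51.3% of all genes. The median log2 fold change was 0.12 over the 9 members and -0.0004 over all genes tested. The members were chosen with earlier results of these data known, so their shares and median beside those of all genes are a description only. Of the 4 calls, CLDN7 alone held in each of 12 other settings of the fit.

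**Figure D1:**
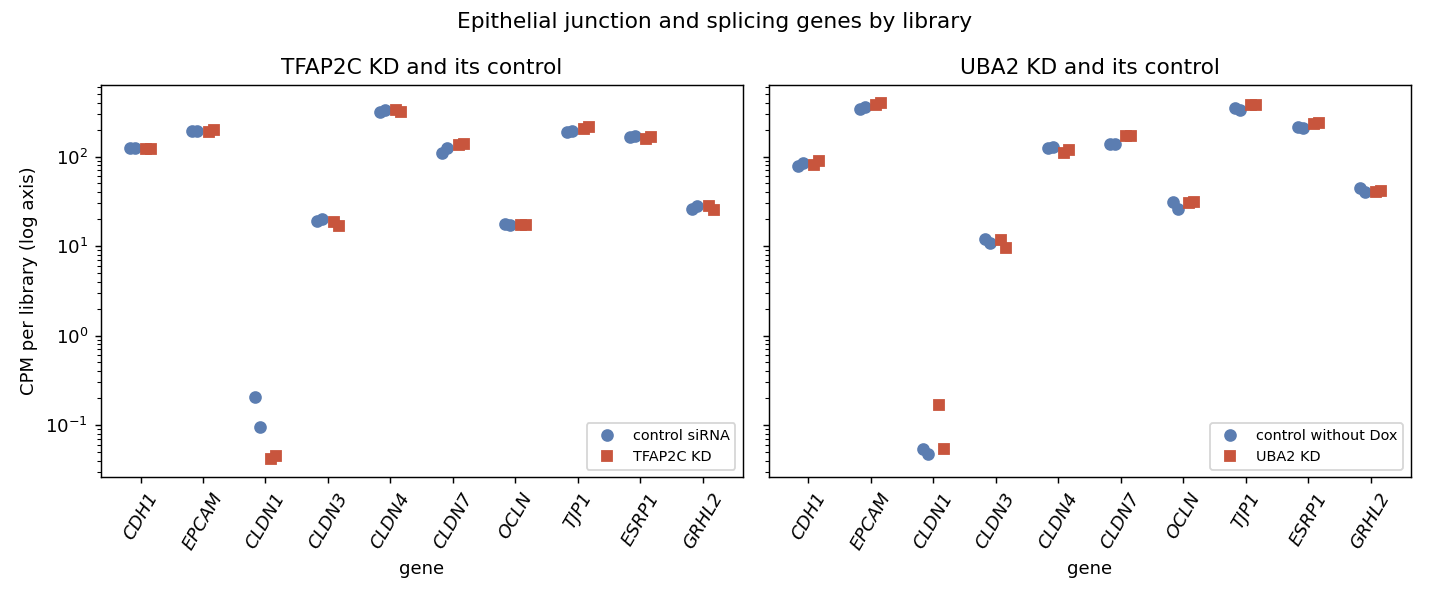
CPM of each gene in each library on a log axis, with TFAP2C KD and its control on the left and UBA2 KD and its control on the right (circles, 2 control libraries; squares, 2 knockdown libraries; no mean or error bar is drawn). Apart from CLDN1, near 0 throughout, each gene's 4 values in an experiment sit close together, and CLDN7 in the right panel shows the clearest gap between groups, 137.2 and 137.9 against 167.9 and 169.2 CPM.

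Levels were compared between genes per kilobase of the gene length in each table (RPKM). With control siRNA, EPCAM was highest at 76.8 ± 0.870 RPKM (SD, n = 2), followed by CLDN4 (68.7 ± 1.96), CLDN7 (47.3 ± 4.39) and ESRP1 (34.5 ± 1.06). CDH1 had 20.5 ± 0.122, TJP1 17.1 ± 0.328 and CLDN3 15.4 ± 0.541 RPKM, and GRHL2 (4.45 ± 0.286), OCLN (2.56 ± 0.0432) and CLDN1 (0.0415 ± 0.0213) came last. No neighbours in this order had overlapping replicates. Among genes tested, EPCAM stood at percentile 97.5 and OCLN at percentile 35.8 by this measure.

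The order in control without Dox was close to this, with EPCAM at 205.8 ± 8.01 RPKM (SD, n = 2), CLDN4 at 69.9 ± 0.970, CLDN7 at 67.5 ± 0.238 and ESRP1 at 56.0 ± 1.11. TJP1 (45.3 ± 1.74) stood above CDH1 (17.1 ± 0.941) there, and CLDN3 (8.98 ± 0.661), GRHL2 (7.05 ± 0.588), OCLN (4.26 ± 0.548) and CLDN1 (0.0147 ± 0.00113) again came last in the same order. No neighbours overlapped there either. The tables count different gene models, so levels are set side by side and were not tested across them. CLDN4 spans 4.697 kb of exons in the TFAP2C table and 1.822 kb in the UBA2 table. With the shorter length, chosen as an alternative after the data were seen, CLDN4 in control siRNA would have 177.2 RPKM and EPCAM 112.8, and CLDN4 would lead.

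CDH1 (chromosome 16, 68737292 to 68835541, plus strand; positions of genes are on GRCh38 as the TFAP2C table gives them) encodes E-cadherin, the adhesion molecule of adherens junctions. It had 124.4 and 125.5 CPM with control siRNA and 120.3 and 121.6 in TFAP2C KD. Both knockdown libraries lay below both controls, by less than 5 CPM on average, and the log2 fold change was -0.05 (95% interval -0.19 to 0.10, edgeR adjusted p = 0.808). In control without Dox it had 79.0 and 85.4 CPM, and in the libraries labelled UBA2 KD 80.6 and 89.2. These groups overlapped, with a log2 fold change of 0.05 (-0.08 to 0.17, edgeR adjusted p = 0.733).

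EPCAM (chromosome 2, 47345158 to 47387601, plus strand) is a surface glycoprotein of epithelial cells that binds claudin-7 and also acts in adhesion. TFAP2C KD left it at 186.3 and 198.7 CPM against 191.2 and 194.3 with control siRNA. The controls lay between the knockdown libraries, and the log2 fold change was -0.002 (95% interval -0.15 to 0.15, edgeR adjusted p = 0.994). It had 342.1 and 361.5 CPM in control without Dox and 379.6 and 399.1 in the libraries labelled UBA2 KD. The groups did not overlap, and EPCAM rose by a log2 fold change of 0.15 (SE 0.05, 95% interval 0.05 to 0.24, edgeR adjusted p = 0.0414).

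CLDN7 (chromosome 17, 7259903 to 7263983, minus strand) encodes claudin-7, a tight junction protein found also along the lateral membrane. It had 137.9 and 137.2 CPM in control without Dox and 169.2 and 167.9 in the libraries labelled UBA2 KD. The gap between the groups was far wider than the gap within either, and the log2 fold change was 0.29 (SE 0.05, 95% interval 0.19 to 0.40, edgeR adjusted p = 0.000156), or 1.23-fold. In TFAP2C KD it had 133.8 and 137.2 CPM against 110.0 and 125.4 with control siRNA. Both knockdown libraries were above both controls here too, but the controls differed by 13.1% of their mean and the log2 fold change of 0.20 (SE 0.08) had an edgeR adjusted p of 0.301. The log2 fold change was 0.22 without TFAP2C KD replicate 1 and 0.19 without TFAP2C KD replicate 2. Without control siRNA replicate 1 the log2 fold change was 0.11, and without control siRNA replicate 2 it was 0.29. ELP5, which overlaps CLDN7 on the opposite strand in both tables, had 48.2 and 45.1 CPM in control without Dox and 50.9 and 45.7 with Dox (log2 fold change 0.05, edgeR adjusted p = 0.748). The stretch shared by the 2 genes runs only from position 7259903 to 7259940 in the TFAP2C table and from 7163222 to 7163259 in the UBA2 table. The strand setting of the counting is not given in the sources used here, so reads from this stretch cannot be assigned. The TFAP2C table also lists AC003688.1 over CLDN7 on the same strand, and whether reads shared by these rows were dropped was not tested.

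CLDN4 (chromosome 7, 73799542 to 73832693, plus strand) encodes claudin-4, a tight junction protein that limits the passage of ions. It went the other way from CLDN7 in the Dox experiment, with 126.0 and 128.5 CPM in control without Dox and 108.3 and 117.3 in the libraries labelled UBA2 KD. The groups did not overlap, and CLDN4 fell by 0.17 on the log2 scale (SE 0.06, 95% interval -0.29 to -0.06, edgeR adjusted p = 0.0454). With control siRNA it had 316.4 and 329.3 CPM and in TFAP2C KD 334.3 and 316.5. These values overlapped, with a log2 fold change of 0.01 (-0.13 to 0.16, edgeR adjusted p = 0.960).

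CLDN3 (chromosome 7, 73768997 to 73770270, minus strand), a neighbour of CLDN4 and another sealing claudin, had 19.2 and 20.1 CPM with control siRNA and 18.7 and 16.7 in TFAP2C KD. Both knockdown libraries were below both controls, with a log2 fold change of -0.15 (95% interval -0.37 to 0.07, edgeR adjusted p = 0.579). In control without Dox it had 12.02 and 10.8 CPM, and with Dox 11.8 and 9.40. These groups overlapped (log2 fold change -0.11, -0.36 to 0.14, edgeR adjusted p = 0.677), and the interval is the widest of the members, at 175 to 226 counts a library.

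CLDN1 (chromosome 3, 190305707 to 190322446, minus strand), the claudin of the skin barrier among other epithelia, was at the edge of detection and was left out of the tests by the filter on low counts. It had 5 and 2 counts with control siRNA, 1 and 1 in TFAP2C KD, 1 and 1 in control without Dox and 3 and 1 in the libraries labelled UBA2 KD. At this depth no difference between groups could be seen. Over the whole family, 24 claudins were listed in each table, of which 7 were tested in TFAP2C KD and 8 in UBA2 KD, and 9 and 10 had 0 counts in all 4 libraries. CLDN4 and CLDN7 had the highest levels per kilobase of the family in both controls. Besides CLDN3, CLDN12, CLDN15 and CLDN23 were also above 1 RPKM in both. CLDN4 and CLDN7 were the only tested claudins called by edgeR, both in UBA2 KD, where 9.98% of all genes tested were called. They are the members counted above and add no further calls, and CLDN4 kept its call in 6 of 12 other settings.

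**Figure D2:**
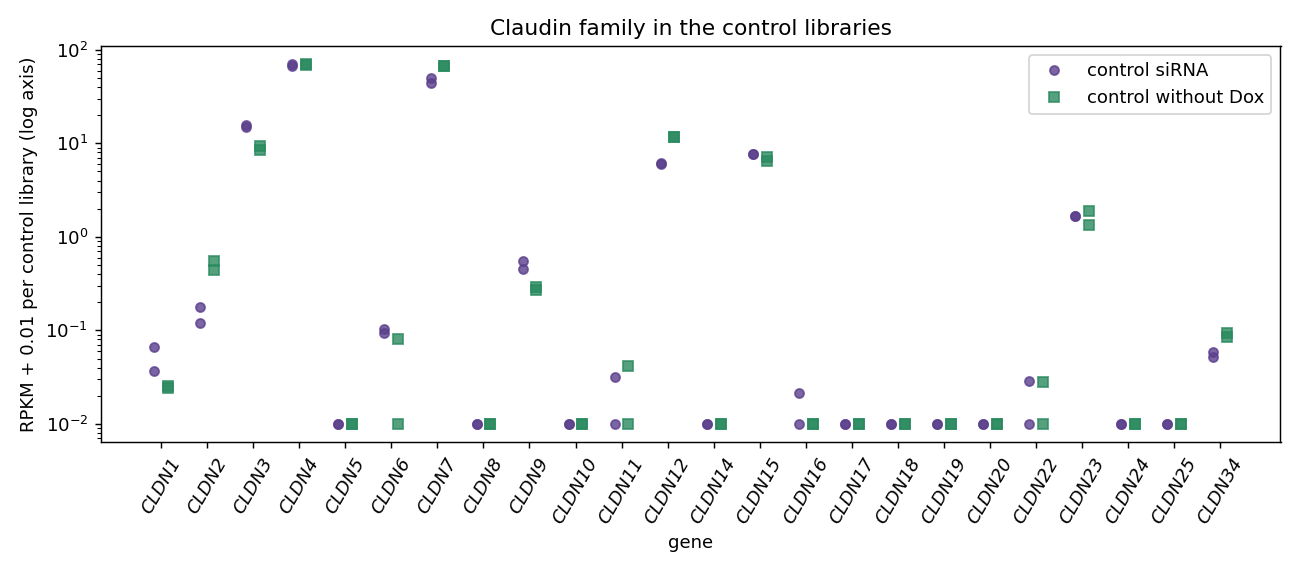
Level per kilobase of every listed claudin in the 4 control libraries, as RPKM plus 0.01 on a log axis (circles, control siRNA; squares, control without Dox; each point is 1 library). CLDN4, CLDN7 and CLDN3 lead in control siRNA, CLDN1 lies near the floor, and points at 0.01 are claudins with 0 counts.

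The 250 bases before the RefSeq start of CLDN7, CLDN4 and CLDN3 are printed because these neighbours in function went up, down and did not pass the test with Dox. The windows are on GRCh38.p14, written on the gene's own strand, at chr17:7262479-7262728 (minus; the inner of the 2 CLDN7 starts listed), chr7:73830746-73830995 (plus) and chr7:73770271-73770520 (minus). Capitals mark matches on either strand to GCCNNNGGC, the AP-2 motif, to CACCTG, the E-box that ZEB and SNAI proteins are known to bind, or to AACNGGTT, the GRHL motif.
CLDN7: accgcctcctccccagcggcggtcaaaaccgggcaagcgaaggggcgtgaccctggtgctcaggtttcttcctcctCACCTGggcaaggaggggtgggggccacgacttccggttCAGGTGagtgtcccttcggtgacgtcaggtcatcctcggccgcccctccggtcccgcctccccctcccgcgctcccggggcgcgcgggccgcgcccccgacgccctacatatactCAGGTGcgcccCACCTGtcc
CLDN4: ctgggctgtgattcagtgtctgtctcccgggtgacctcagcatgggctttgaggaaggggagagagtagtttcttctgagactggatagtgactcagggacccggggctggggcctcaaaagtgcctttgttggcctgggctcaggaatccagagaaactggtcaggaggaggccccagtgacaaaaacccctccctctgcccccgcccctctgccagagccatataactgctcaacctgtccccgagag
CLDN3: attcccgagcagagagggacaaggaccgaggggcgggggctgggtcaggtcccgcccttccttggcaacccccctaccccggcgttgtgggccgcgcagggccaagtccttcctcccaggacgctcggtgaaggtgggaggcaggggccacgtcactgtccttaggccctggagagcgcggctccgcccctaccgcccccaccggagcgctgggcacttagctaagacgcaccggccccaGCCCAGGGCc

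CLDN7 held 4 E-boxes in this window, CLDN3 held 1 AP-2 match at its end, and CLDN4 held no match to any of the motifs. The AP-2 motif was found in 19.8% of the 35116 RefSeq windows of this length, the E-box in 17.5% and the GRHL motif in 1.49%. The outer CLDN7 start and the CLDN1 window held none, both OCLN windows held 1 E-box each, and 1 of 4 TJP1 windows held 1 E-box. A match is a run of letters and not a site shown to be bound. CDH1, EPCAM, ESRP1 and GRHL2 are not shown.

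OCLN (chromosome 5, 69492292 to 69558104, plus strand) encodes occludin, a membrane protein of tight junctions. It had 17.5 and 17.1 CPM with control siRNA and 17.1 and 17.2 in TFAP2C KD, values that overlapped (log2 fold change -0.01, 95% interval -0.23 to 0.20, edgeR adjusted p = 0.970). In control without Dox the replicates stood apart, at 30.8 and 25.6 CPM, and with Dox OCLN had 30.1 and 30.9. The higher control lay between the libraries labelled UBA2 KD, and the log2 fold change of 0.12 (-0.06 to 0.29, edgeR adjusted p = 0.454) ranged from -0.01 without control without Dox replicate 2 to 0.25 without replicate 1 of that group.

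TJP1 (chromosome 15, 29699367 to 29968865, minus strand) encodes ZO-1, the scaffold that joins claudins and occludin to actin. Its 4 values in the Dox experiment were 348.0 and 329.6 CPM in control without Dox and 378.4 and 374.5 in the libraries labelled UBA2 KD. The groups did not overlap, and TJP1 rose by a log2 fold change of 0.15 (SE 0.05, 95% interval 0.06 to 0.25, edgeR adjusted p = 0.0300). In TFAP2C KD it had 204.8 and 211.9 CPM against 189.2 and 194.4 with control siRNA. Both knockdown libraries were above both controls, with a log2 fold change of 0.12 (-0.02 to 0.26) that did not pass the test (edgeR adjusted p = 0.482).

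ESRP1 (chromosome 8, 94641074 to 94707466, plus strand) had 164.1 and 171.4 CPM with control siRNA and 159.1 and 163.9 in TFAP2C KD. Both knockdown libraries were below both controls, the nearest by less than 1 CPM, and the log2 fold change was -0.05 (95% interval -0.20 to 0.09, edgeR adjusted p = 0.773). In the Dox experiment it had 215.4 and 209.4 CPM in control without Dox and 231.6 and 236.6 in the libraries labelled UBA2 KD. There both knockdown libraries were above both controls, with a log2 fold change of 0.14 (SE 0.05, 0.04 to 0.24) and an edgeR adjusted p of 0.0650. Its paralog ESRP2 had 59.5 and 68.7 CPM with control siRNA and 80.8 and 76.5 in TFAP2C KD (log2 fold change 0.30, edgeR adjusted p = 0.174), and a log2 fold change of -0.07 with Dox (edgeR adjusted p = 0.589).

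GRHL2 (chromosome 8, 101492432 to 101669726, plus strand) had 25.6 and 28.1 CPM with control siRNA and 27.8 and 25.6 in TFAP2C KD. It had 45.0 and 40.0 CPM in control without Dox and 39.7 and 41.6 in the libraries labelled UBA2 KD. The groups overlapped in both experiments, with log2 fold changes of -0.01 (95% interval -0.21 to 0.20, edgeR adjusted p = 0.982) and -0.06 (-0.21 to 0.09, edgeR adjusted p = 0.686). Its paralogs did not pass the test either: GRHL1 had log2 fold changes of 0.02 in TFAP2C KD and -0.22 with Dox, and GRHL3, at no more than 2.14 CPM in any library, had 0.67 and -0.56.

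**Figure D3:**
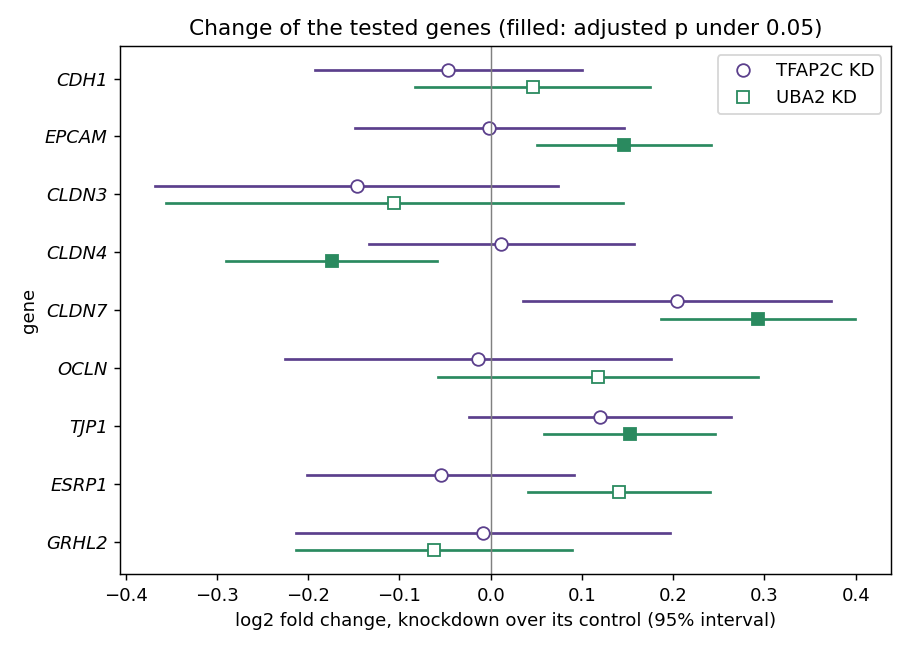
Log2 fold change of the 9 tested genes in each knockdown against its own control, with 95% intervals (circles, TFAP2C KD; squares, libraries labelled UBA2 KD; filled, edgeR adjusted p under 0.05). No circle is filled, and the filled squares are EPCAM, CLDN7 and TJP1 at 0.15, 0.29 and 0.15 and CLDN4 at -0.17.

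The calls in the libraries labelled UBA2 KD were not equally firm. Under 12 other settings, the log2 fold change of CLDN7 stayed between 0.27 and 0.30 and its adjusted p reached at most 0.0143. EPCAM and TJP1 were each called in 7 of 12 and CLDN4 in 6 of 12, with adjusted p up to 0.341, 0.335 and 0.333. In DESeq2 the adjusted p was 0.0931 for EPCAM, 0.0567 for TJP1 and 0.134 for CLDN4, and with library size alone it was 0.0945 for EPCAM and 0.0684 for TJP1. With the replicate number as a block, CLDN4 had an adjusted p of 0.0613. EPCAM lost its call without control without Dox replicate 1 (log2 fold change 0.11) or UBA2 KD replicate 2 (0.11), and TJP1 without control without Dox replicate 2 (0.11) or UBA2 KD replicate 1 (0.15). CLDN4 lost its call without either control (-0.19 and -0.16) and without UBA2 KD replicate 1 (-0.12). ESRP1 was called in 1 of 12, a crossed pairing of the replicates. The direction of each of these 5 genes was the same in all 12 settings.

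**Figure D4:**
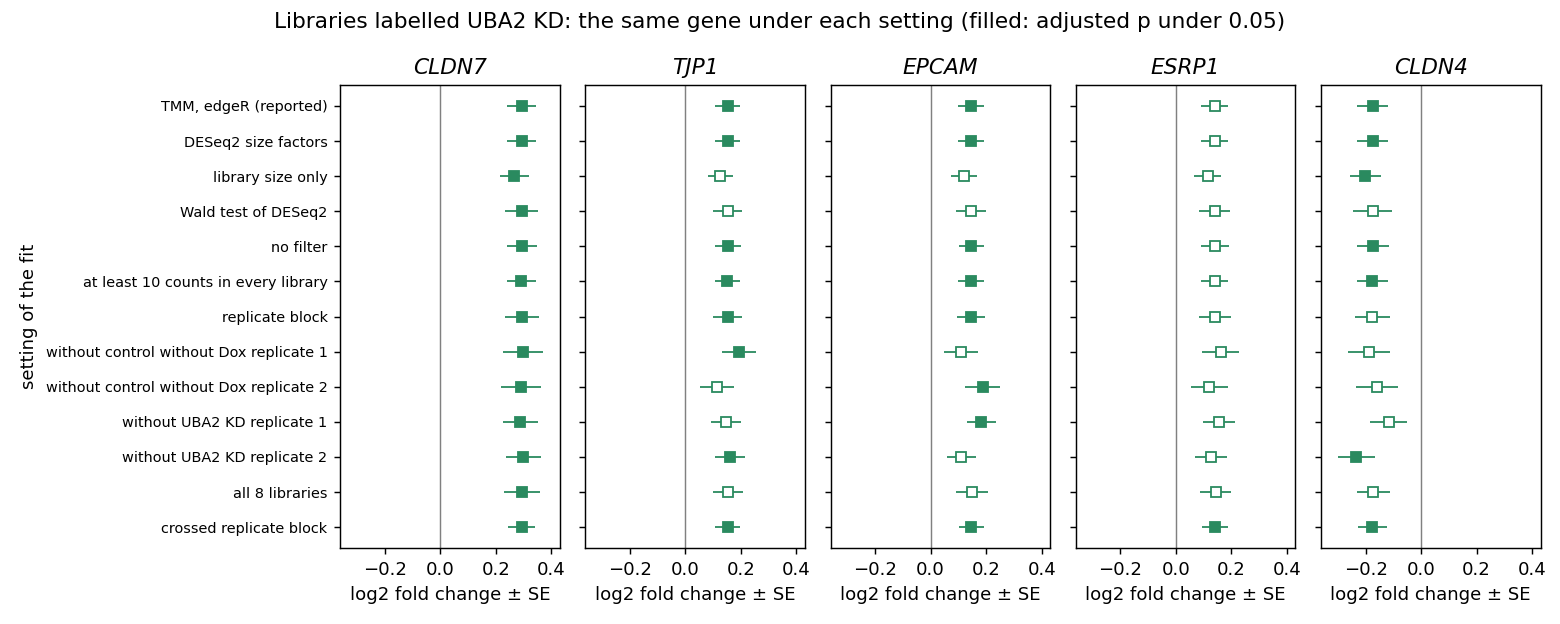
Log2 fold change ± SE of 5 genes in the libraries labelled UBA2 KD, in the reported fit (top row) and under 12 other settings (rows; filled, adjusted p under 0.05). CLDN7 is filled in every row, EPCAM and TJP1 in 7 of 12 others, CLDN4 in 6 and ESRP1 in 1, and no gene crosses 0.

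Whether a member responded differently in the 2 experiments was tested as the difference of its log2 fold changes, with the 8 libraries fitted together on 13179 genes. None of 9 members was called by edgeR, against 2.37% of genes, nor by DESeq2, which called 263 of the 13179 genes. The share of all genes at an unadjusted p under 0.05 was not counted here, and 1 of 9 members, ESRP1, lay under it. Its log2 fold change was lower in TFAP2C KD by 0.21 (SE 0.08, difference -0.21, 95% interval -0.38 to -0.04, edgeR adjusted p = 0.225). Without TFAP2C KD replicate 2 the difference was -0.24. For CLDN4 the difference was 0.17 (interval -0.004 to 0.35) and for EPCAM -0.16 (-0.33 to 0.01). CLDN7 differed by -0.10 (-0.30 to 0.10) and TJP1 by -0.05 (-0.21 to 0.12), so differences of up to 0.30 and 0.21 are within their intervals.

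Other genes of these structures were taken from lists of known parts. In TFAP2C KD, 0 of 17 tested tight junction genes, 0 of 11 adherens junction genes, 0 of 8 desmosome genes, 0 of 12 epithelial regulators, 0 of 9 epithelial surface genes and 0 of 8 ESRP-regulated transcripts were called by edgeR, nor were any by DESeq2. At an unadjusted p under 0.05 the counts were 5, 2, 1, 3, 1 and 2, in that order, and 1889 of the 14991 genes tested. Medians of the log2 fold changes ran from -0.09 for ESRP-regulated transcripts to 0.13 for the regulators.

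In the libraries labelled UBA2 KD, 3 of 18 tight junction genes were called by edgeR, against 9.98% of all genes. DESeq2 called 1 of them, AMOTL2, against 673 of the 13381 genes tested. AMOTL2, an angiomotin of junctions, had 71.4 and 69.3 CPM in control without Dox and 82.2 and 84.5 with Dox (log2 fold change 0.25), LSR, a tricellular junction protein, rose by 0.16, and CXADR, an adhesion molecule of tight junctions, fell by 0.24 on the log2 scale. Of 11 adherens junction genes, 1 was called, VCL, which links junctions to actin (0.25). Of 8 desmosome genes 0 were called, by edgeR or DESeq2. In edgeR 1 of the 8 had an unadjusted p under 0.05, against 3036 of the 13381 genes tested. The catenins CTNNA1 and CTNNB1 had log2 fold changes of 0.13 (edgeR adjusted p = 0.0556) and -0.06 (0.453), and JUP, which serves both adherens junctions and desmosomes, -0.02 (0.873). TJP3, a ZO paralog, had a log2 fold change of -0.13 and did not pass the test.

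Of 12 genes listed as epithelial regulators, 4 were called by edgeR, against 9.98% of all genes. DESeq2 called the same 4, against 673 of the 13381 genes tested. KLF4, a transcription factor of epithelial differentiation, had 46.6 and 45.7 CPM in control without Dox and 75.9 and 72.6 with Dox, a log2 fold change of 0.69 (SE 0.06, edgeR adjusted p = 1.46e-09). ELF3, an epithelial ETS factor, went from 69.2 and 73.4 CPM to 48.7 and 49.7, a log2 fold change of -0.54 (SE 0.07, edgeR adjusted p = 2.49e-07). MARVELD1, listed here although MARVELD2 and MARVELD3 stand with the tight junction genes, rose by 0.26, and KLF5, the fourth gene called, by 0.22. Their groups did not overlap, and these changes of KLF4 and ELF3 were larger in size than that of any of the 9 tested members.

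Of 10 epithelial surface genes, 4 were called by edgeR, against 9.98% of all genes. DESeq2 called 2, SPINT2 and MAL2, against 673 of the 13381 genes tested, and CD24 and RAB25 lost their calls. CD24 fell, from 6.89 and 7.24 CPM in control without Dox to 4.50 and 5.16 with Dox (log2 fold change -0.55), and RAB25 and MAL2, both of apical membrane traffic, rose by 0.22 and 0.21. Of 8 transcripts whose exon choice ESRP proteins are known to set, 3 were called at gene level: CD44 rose by 0.13, LSR by 0.16, and MAGI1 fell by 0.21 on the log2 scale. DESeq2 called 0 of these 8. Among the 5 tested markers of colorectal epithelium, edgeR called 2, the keratins KRT8 and KRT18, against 9.98% of all genes. Both rose (0.18 and 0.25, edgeR adjusted p = 0.00405 and 7.79e-05). Not all markers went this way: 3 of the 5 were higher with Dox. The change of greatest size among the 5 was a decrease, at -0.78 on the log2 scale, and was not called. Medians of the log2 fold changes lay between -0.09 and 0.01 over the junction, regulator, surface, ESRP-regulated and mesenchymal lists, at 0.12 over the 9 tested members and at 0.15 over the 5 tested markers of colorectal epithelium.

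**Figure D5:**
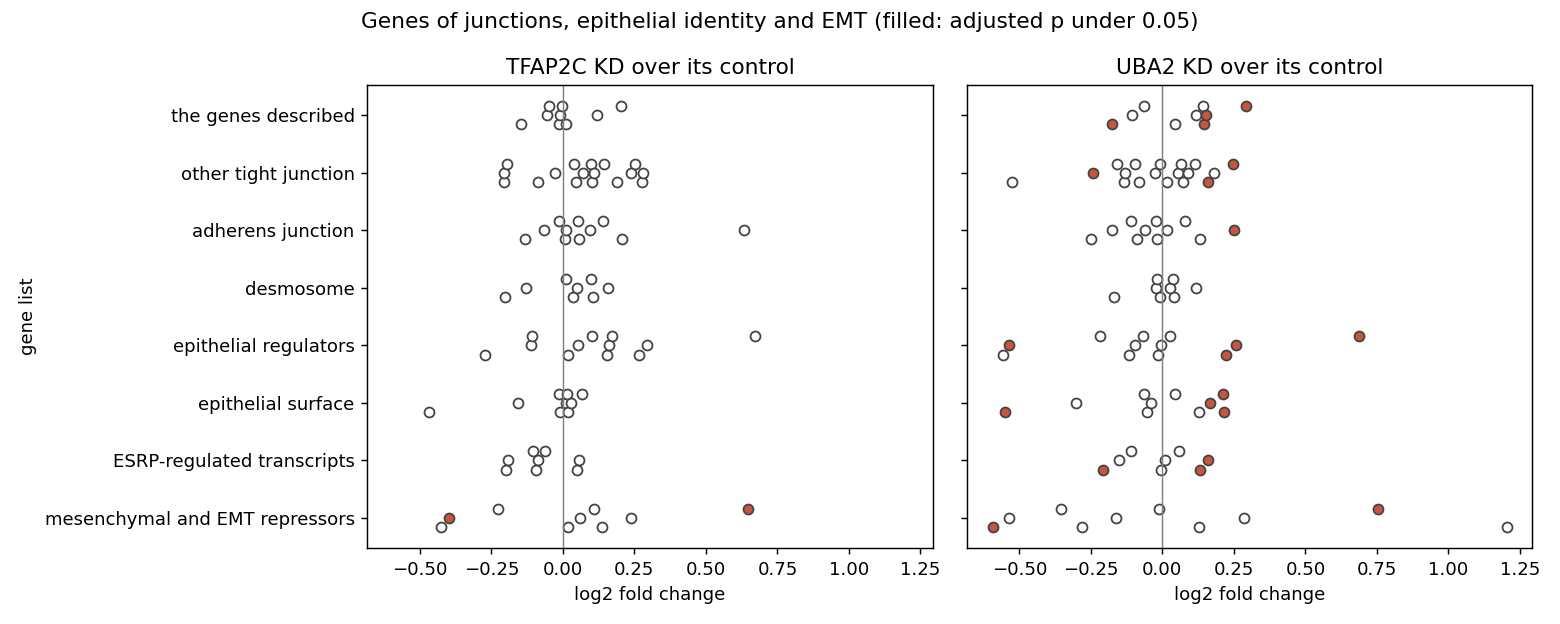
Log2 fold change of every tested gene in each list, TFAP2C KD on the left and UBA2 KD on the right, each over its own control (points, genes; filled, edgeR adjusted p under 0.05; the height within a row has no meaning). On the left no point is filled outside the bottom row, where SPARC lies at -0.40, and on the right filled points lie on both sides of 0 in most lists.

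Of the repressors whose gain marks EMT, ZEB2 had 0 counts in 7 of 8 libraries and 2 in the other. Of the mesenchymal markers, CDH2, which encodes N-cadherin, had at most 1 count. ZEB1 lay between 3.04 and 9.02 CPM, VIM between 1.88 and 7.79, SNAI2 between 0.214 and 0.888 and SNAI1 between 10.3 and 17.6, and none of those tested was called. SNAI2 was not tested in TFAP2C KD. It was above both controls with Dox, at 0.888 and 0.645 CPM against 0.214 and 0.431, with an edgeR adjusted p of 0.121. ZEB1 had 3.04 CPM in TFAP2C KD replicate 1 and 6.13 in replicate 2, against 5.25 and 5.42 with control siRNA.

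SPARC, a matrix protein, had 585.0 and 601.3 CPM with control siRNA and 468.9 and 431.8 in TFAP2C KD. The groups did not overlap, and it fell by 0.40 on the log2 scale (SE 0.07, edgeR adjusted p = 0.0212). FN1, fibronectin, had 14.48 and 14.52 CPM in control without Dox and 9.38 and 9.83 with Dox, and fell by 0.59 on the log2 scale (SE 0.11, edgeR adjusted p = 0.000339).

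CTNND1, p120-catenin, which holds E-cadherin at the membrane, could not be followed across both experiments. It had 363.4 to 383.6 CPM in the siRNA libraries and 2.33 to 3.50 in the Dox libraries. Its readthrough neighbour on the same strand, TMX2-CTNND1, covers 6.347 kb of exons in the UBA2 table and 0.581 kb in the TFAP2C table, and has 0 counts in all 8 libraries. Whether reads shared by both rows were dropped was not tested.

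Of 80 listed genes, the nearest in pattern to each member was found over the 8 libraries by the root mean square difference of log2 CPM, centred on each gene's own controls. EPCAM and ESRP1 were nearest to each other (0.044), and ESRP1 was also nearest to OCLN (0.065). CLDN7 and TJP1 were both nearest to KLF5 (0.056 and 0.045), CLDN4 to TJP3 (0.052), CDH1 to CRB3 (0.045), GRHL2 to PKP4 (0.046) and CLDN3 to RBM47 (0.075). These distances rest on differences of the size of the replicate spread and are given as a description.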

How the data were processed

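The authors aligned single-end reads of 51 bases and counted them per gene; the submitters' processing notes name TopHat2, HTSeq 0.9.1 and hg19. They deposited 1 table of raw counts per experiment, without normalization, each with a gene length in kb. The TFAP2C table has 42125 rows with positions of GRCh38, which differs from the build named, and the UBA2 table has 23393 rows with positions of hg19, so the tables were analysed separately. Strand and overlap settings of the counting are not given in the sources used here. Groups follow the sample titles.

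Analysis used edgeR 4.0.16 under R 4.3.3. Low genes were removed by filterByExpr, libraries were scaled by TMM, and a quasi-likelihood test set each knockdown against its control (two-sided, Benjamini-Hochberg over all genes tested, threshold 0.05). CPM were computed on the scaled library sizes of the genes tested, and RPKM are CPM per kb. The biological coefficient of variation was 6.28% with siRNA and 3.56% in the Dox experiment. Groups of 2 are too small for an exact test of a single value to reach 0.05. DESeq2 1.42.0 was an alternative, and the code was tested on simulated data. Replicates differed by more than sampling noise, so none was counted as a repeat. The chi-square per degree of freedom was 9.09 in TFAP2C KD and 2.55 to 2.76 in the other groups.

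The members and gene lists were chosen with earlier results of these data known. Besides the members and the targeted genes, the text names per list up to 3 called genes with the largest change, groups that do not overlap and a mean log2 CPM no lower than 1, and fixed partners and paralogs. ELP5, AC003688.1, KLF5, KRT8, KRT18, KRT19, other claudins and the remaining markers do not come from this rule and were picked once their values were known. Promoter windows are from RefSeq (GRCh38.p14), where 6 of the 10 members matched. The alternatives were DESeq2 size factors, library size only, the Wald test of DESeq2, no filter, a minimum of 10 counts per library, a replicate block, a joint fit of the 8 libraries and each library left out. Some listed genes are not reported here. The crossed pairing and the gene length of the other table were added after the data were seen.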

Additional observations from a re-analysis of the deposited data

Results flagged for a closer look

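With 2 libraries in each group, no library could be tested as standing apart from its group. Among the members, the values of ESRP1 lay on opposite sides of their controls in the experiments, although it passed the test in neither. Both TFAP2C KD libraries were below both controls and both libraries labelled UBA2 KD were above theirs, and the difference of its log2 fold changes was -0.21 (SE 0.08), which did not pass the test (edgeR adjusted p = 0.225). The difference itself passed the edgeR test for 3 other named genes. CD44, a transcript whose exons ESRP proteins set, had 967.7 and 966.5 CPM with control siRNA and 839.5 and 847.0 in TFAP2C KD, and 904.4 and 920.7 CPM in control without Dox and 988.1 and 1009 with Dox, a difference of -0.34 (SE 0.07, edgeR adjusted p = 0.0129). KLF4 had log2 fold changes of 0.17 and 0.69, a difference of -0.53 (SE 0.12, edgeR adjusted p = 0.0249). ELF3 had -0.11 and -0.54, a difference of 0.42 (SE 0.10, edgeR adjusted p = 0.0322). In TFAP2C KD alone, CD44, KLF4 and ELF3 did not pass the test (edgeR adjusted p = 0.234, 0.470 and 0.579).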

How the results depend on the processing

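With 2 libraries in each group, calls depended on single libraries. In TFAP2C KD, 111 genes were called by edgeR, 398 without a filter, 271 with all 8 libraries and 49 to 2825 with a library left out, the highest without TFAP2C KD replicate 2 (537 without replicate 1 of that group). The members called there were 0 to 1 with a library left out, the 1 being CLDN7. In the libraries labelled UBA2 KD, 1336 genes were called, 673 by DESeq2, 696 with all 8 libraries and 833 to 1271 with a library left out. The members called were 4, and 2 with library size only, 1 by DESeq2, 1 with all 8 libraries and 2 to 3 with a library left out. For the difference between the knockdowns, 313 genes were called, 607 without a filter and 113 to 1554 with a library left out, and 0 to 1 members, the 1 being ESRP1.

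The replicate numbers did not pair the libraries: same-numbered libraries deviated in opposite directions (correlation -0.397 with siRNA, -0.115 with Dox). With the replicate number as a block, 172 genes were called in TFAP2C KD, 1308 in UBA2 KD and 173 for the difference, and the members called were 0, 3 and 0. A crossed pairing gave 467 and 1708 genes and 0 and 5 members.

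Library size only moved the median of all genes by less than 0.1, to -0.03 in both, and the share of higher calls in UBA2 KD from 55.2% to 42.2%, and DESeq2 moved it to 66.4%. DESeq2 also moved this share in TFAP2C KD from 35.1% to 45.6%.

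Members near 0 changed sign. In TFAP2C KD, EPCAM had a log2 fold change of 0.000308 with DESeq2 size factors, 0.000307 in DESeq2 and 0.00349 without a filter, and CLDN4 had -0.0169 with library size only. With a library left out, the log2 fold changes in TFAP2C KD ranged from -0.0455 to 0.0449 for EPCAM, -0.0276 to 0.0538 for CLDN4, -0.0395 to 0.00421 for OCLN and -0.0741 to 0.0556 for GRHL2. In the libraries labelled UBA2 KD they ranged from -0.0286 to 0.118 for CDH1, -0.278 to 0.0532 for CLDN3, -0.0116 to 0.252 for OCLN and -0.147 to 0.0242 for GRHL2. The differences ranged from -0.212 to 0.127 for CLDN3, -0.192 to 0.0118 for CLDN7, -0.0797 to 0.00124 for TJP1 and -0.0360 to 0.126 for GRHL2. The cause was not tested.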

Other observations

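The control groups of the 2 experiments differed widely in some genes of the epithelial and mesenchymal lists, although all cells carry the same label. SPARC had 585.0 and 601.3 CPM with control siRNA and 1.44 and 2.11 in control without Dox. KRT19, a keratin of simple epithelia, had 1163 and 1212 against 151.8 and 143.2 CPM. The UBA2 table lists JUP, among other rows, over KRT19 on the same strand, and the TFAP2C table lists no row over it. Whether shared reads were dropped was not tested. Among the members, the mean CPM in control without Dox divided by that with control siRNA ran from 0.394 for CLDN4 to 1.83 for EPCAM, with CLDN1 set aside for its low counts. Experiment and count table cannot be told apart here, so these values are given side by side without a test.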
